A study of Mus musculus with 15 samples.

Results

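Transcripts of 55 chemokine and cytokine genes were followed in mouse small intestinal organoids that carried a SOX9 transgene. The genes were chosen by symbol from the 78298 genes listed in the deposited count files. They are every gene named Ccl or Cxcl with a number (26 Ccl and 13 Cxcl genes) and 16 further genes, namely Cx3cl1, Il1a, Il1b, Il6, Il11, Il15, Il18, Il23a, Il33, Il34, Tslp, Csf1, Csf2, Csf3, Lif and Tnf. The rule used symbols and no measured value, and it was written with earlier results of these data known.

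Chemokines are small secreted proteins that direct the migration of leukocytes through G-protein-coupled receptors, and the spacing of their first cysteines divides them into CC, CXC and CX3C chemokines. The intestinal epithelium makes several of them itself. CCL25 and CCL28 draw lymphocytes and antibody-secreting cells to the mucosa, whereas CXCL1, CXCL2, CXCL5 and CCL20 are made after contact with microbes or inflammatory cytokines, in large part under the control of the transcription factor NF-kB. Among cytokines, IL-33 is a nuclear alarmin that is released from damaged barrier cells, IL-18 is matured by inflammasomes, and CSF1 and IL-34 are the 2 ligands of the receptor CSF1R on macrophages.

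The organoids were grown from crypts of female C57BL/6J mice aged 8 to 16 weeks and transduced with lentiviruses that express a transgene from the weak ubiquitous L30 promoter, followed by selection with puromycin. Halo-NLS, the control, expressed the HaloTag with a nuclear localization sequence and no SOX9 transgene. SOX9-Halo and SOX9-mEGFP expressed SOX9 fused to the HaloTag or to monomeric EGFP, and each was sequenced while the organoids still budded and again after they had become spheroids. The lines were polyclonal at first and were harvested 5 days after seeding, with 6 wells pooled per sample. Passages after crypt isolation were 11 for Halo-NLS and SOX9-mEGFP_budding, 15 for SOX9-Halo_budding, 27 for SOX9-mEGFP_spheroid and 52 for SOX9-Halo_spheroid. The spheroid samples carried a further transgene, H2B-mEGFP in SOX9-Halo_spheroid and H2B-mScarletI in SOX9-mEGFP_spheroid, so that morphology, passage and the further transgene cannot be told apart. In differences between the spheroids of the SOX9 lines, the line, its tag, the passage and the further transgene cannot be told apart either. Each of the 5 conditions had 3 libraries, described as biological replicates and harvested within a narrow range around the passages given. The paper names a single stable line for each construct, so p-values here measure the spread among libraries of a line. They do not cover the spread among independently made lines or mice.

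The libraries held 28062722 to 40559766 reads on genes. Sox9 transcripts, which include those of the transgene, had normalized counts of 305 to 769 in Halo-NLS and of 6487 to 23654 in the SOX9 libraries other than SOX9-Halo_budding replicate 1. That library had 1336, nearer to the control than to the 10538 and 6838 of its own replicates. Without it, 1 gene rather than 2 was upregulated in SOX9-Halo_budding relative to Halo-NLS, and 4 were up and 5 down rather than 5 and 6 in SOX9-Halo_spheroid relative to SOX9-Halo_budding. The 7 epithelial markers were abundant in all libraries, with summed normalized counts of 191452 at the lowest. Halo-NLS replicate 3 had the most genes with a count (40375 against 24214 to 34646 in the other libraries), the most listed genes with a count among the 55 (39 against 25 to 35) and the highest counts of the leukocyte genes Ptprc (21.4) and Cd3e (42.7). In SOX9-Halo_spheroid replicate 1, several inflammatory chemokines were far above the other libraries of that condition.

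Of the 55 genes, 25 had enough counts to be tested and 21 of these reached a mean normalized count of 10 over all libraries. A normalized count is the read count scaled by edgeR's TMM factors to a common library size. The 10 genes at 0 in every library were Ccl1, Ccl8, Ccl19, Ccl26, Ccl27b and the 5 Ccl21 copies Ccl21a, Ccl21b, Ccl21d, Ccl21e and Ccl21f, near-identical genes whose reads can be lost when only unique alignments are kept. Together with these, 20 genes had at most 3 counts in each library, among them Il6, Il1b, Ccl4 and Ccl11. A count of 0 allows up to 3 counts per library, so these genes were not detectable at this depth rather than shown to be silent.

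For 34 of the genes, a RefSeq window of 250 bases before the transcription start matched the GRCm39 genome once. The letters of the NF-kB motif, searched on both strands, were found in 8 of these 34 windows (23.5%) and in 3.9% of 32841 windows of all genes. The 6 tested genes among the 8 are shown because they include genes that were high in SOX9-Halo_spheroid replicate 1 (Cxcl1, Cxcl2, Cxcl10 and Ccl20) as well as genes that were not, Csf1 (646 normalized counts against 711 and 823) and Ccl9 (2.37 or less in all 3 libraries). Capitals mark the letters that match the motif on either strand, and in Cxcl1 and Cxcl2 both strands match with an offset of 1 base. The windows were chr5:91038854-91039103 on the plus strand for Cxcl1, chr5:91051508-91051757 on the plus strand for Cxcl2, chr5:92496749-92496998 on the minus strand for Cxcl10, chr1:83094237-83094486 on the plus strand for Ccl20, chr3:107667786-107668035 on the minus strand for Csf1 and chr11:83469463-83469712 on the minus strand for Ccl9.
Cxcl1: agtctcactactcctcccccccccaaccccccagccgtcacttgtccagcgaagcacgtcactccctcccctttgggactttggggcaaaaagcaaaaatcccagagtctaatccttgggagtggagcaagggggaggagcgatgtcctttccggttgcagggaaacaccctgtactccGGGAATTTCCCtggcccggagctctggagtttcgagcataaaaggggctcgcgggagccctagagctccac
Cxcl2: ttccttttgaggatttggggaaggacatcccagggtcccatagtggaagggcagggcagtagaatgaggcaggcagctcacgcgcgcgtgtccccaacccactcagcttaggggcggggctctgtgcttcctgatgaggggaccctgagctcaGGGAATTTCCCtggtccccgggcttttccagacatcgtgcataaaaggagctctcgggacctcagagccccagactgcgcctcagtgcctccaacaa
Cxcl10: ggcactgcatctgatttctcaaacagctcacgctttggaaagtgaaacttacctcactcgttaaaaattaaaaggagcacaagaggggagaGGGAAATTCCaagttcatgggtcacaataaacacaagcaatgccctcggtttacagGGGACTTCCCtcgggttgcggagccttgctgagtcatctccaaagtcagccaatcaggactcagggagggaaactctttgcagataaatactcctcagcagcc
Ccl20: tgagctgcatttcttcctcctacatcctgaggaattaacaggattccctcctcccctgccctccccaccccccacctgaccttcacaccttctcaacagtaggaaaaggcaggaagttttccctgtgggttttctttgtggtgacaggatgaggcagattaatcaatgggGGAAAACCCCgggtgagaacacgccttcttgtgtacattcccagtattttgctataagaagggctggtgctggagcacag
Csf1: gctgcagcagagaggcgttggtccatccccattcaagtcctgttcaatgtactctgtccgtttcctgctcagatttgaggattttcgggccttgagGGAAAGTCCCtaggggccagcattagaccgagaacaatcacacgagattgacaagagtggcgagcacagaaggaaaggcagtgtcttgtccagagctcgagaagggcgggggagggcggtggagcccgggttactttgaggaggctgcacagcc
Ccl9: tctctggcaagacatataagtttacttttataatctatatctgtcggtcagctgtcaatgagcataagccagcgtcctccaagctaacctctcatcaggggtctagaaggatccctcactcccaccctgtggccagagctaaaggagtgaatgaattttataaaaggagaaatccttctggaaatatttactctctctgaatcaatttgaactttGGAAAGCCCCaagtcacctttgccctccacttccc
The AP-1 letters TGANTCA were found in 17.6% of the 34 windows and in 6.75% of all windows, and the TEAD letters GGAATG in 17.6% and 12.64%. Letters of the SOX motif were not more frequent in the windows of the chosen genes, with ACAAAG in 14.7% against 16.46% and ACAAT in 20.6% against 27.66%. These are matches of letters, and no factor's binding was measured.

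In spheroids, the mix of chemokine and cytokine transcripts changed in large part. Ccl25 took 72.3% to 83.3% of all reads on the 55 genes in the Halo-NLS libraries and 63.0% to 78.9% in the budding SOX9 libraries, but 3.48% to 16.7% in SOX9-mEGFP_spheroid and 1.40% to 1.93% in SOX9-Halo_spheroid. Il33 rose from 0.0139% to 0.0267% of these reads in Halo-NLS to 8.55% to 9.42% in SOX9-mEGFP_spheroid and 34.9% to 37.3% in SOX9-Halo_spheroid, where Cxcl16 took a further 28.7% to 29.9%. Cx3cl1 remained a large part, with 8.34% to 19.0% in Halo-NLS, 16.1% to 23.7% in SOX9-mEGFP_spheroid and 13.7% to 15.8% in SOX9-Halo_spheroid. Per kilobase of annotated exon, Il33 had 21.4 ± 1.45 CPM (counts scaled to a fixed library total) per kilobase (SD, n = 3) in SOX9-Halo_spheroid, ahead of Cx3cl1 with 13.6 ± 0.426. Cxcl16 had 20.9 ± 2.04 there and 11.5 ± 2.07 in SOX9-mEGFP_spheroid, but 84.8% of its exon bases are shared with other genes and could not be counted, so its level per kilobase is understated and was not ranked. In SOX9-mEGFP_spheroid, Cx3cl1 (14.1 ± 1.94), Ccl9 (14.0 ± 3.55) and Ccl20 (10.4 ± 2.82) had ranges of mean ± SD that overlapped.

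**Figure D1:**
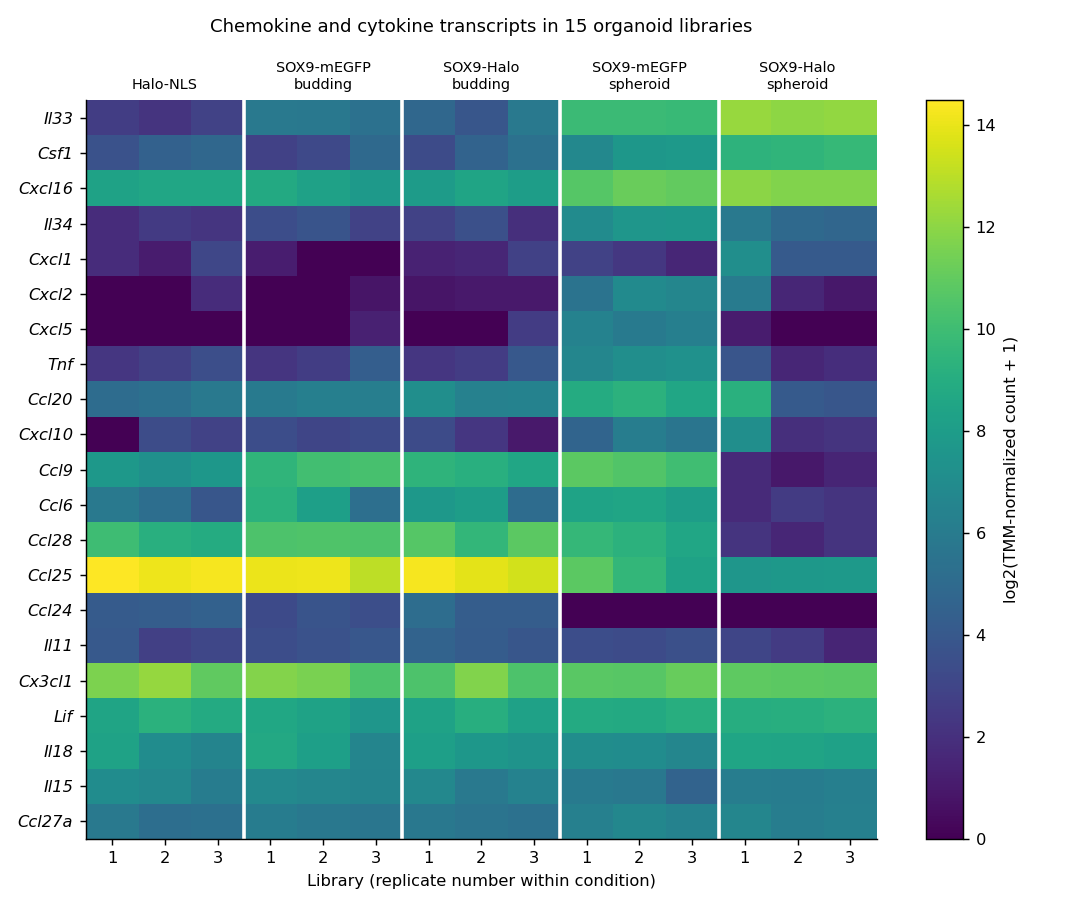
Log2 of the TMM-normalized count plus 1 (colour) of the 21 genes averaging 10 or more (rows) in the 15 libraries (columns, by condition and replicate number). The rows of Il33, Csf1, Cxcl16 and Il34 are brightest in spheroids, Ccl24 is at 0 in all 6 spheroid libraries, and Ccl9, Ccl6 and Ccl28 are dark in the 3 SOX9-Halo_spheroid libraries.

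A gene was called up- or downregulated where edgeR's quasi-likelihood F test gave a Benjamini-Hochberg adjusted p of 0.01 or less over all 17560 tested genes, the change was 2-fold or more, and the normalized counts averaged 10 or more. In SOX9-Halo_spheroid relative to Halo-NLS, 5 of the 25 tested genes were upregulated (Il33, Csf1, Cxcl16, Cxcl1 and Il34) and 4 downregulated (Ccl25, Ccl28, Ccl9 and Ccl24), while 13.6% of all tested genes were called up and 15.3% down (28.9% in all). Relative to SOX9-Halo_budding, the same 5 were upregulated and 6 downregulated (Ccl25, Ccl28, Ccl9, Ccl24, Ccl6 and Il11), against 10.5% of all tested genes up and 14.7% down (25.3% in all). The share of tested genes of the list that was called, 36% and 44%, was thus the nearer to that of all genes in the former comparison. Without SOX9-Halo_spheroid replicate 1, 4 genes were upregulated in each comparison, and 5 and 7 were downregulated.

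In SOX9-mEGFP_spheroid relative to Halo-NLS, 9 genes were upregulated (Il33, Csf1, Cxcl16, Il34, Tnf, Cxcl2, Cxcl5, Ccl9 and Ccl6) and 2 downregulated (Ccl25 and Ccl24), or 44% in all, against 15.3% of all tested genes up and 12.1% down (27.5% in all). Relative to SOX9-mEGFP_budding, 7 were upregulated (the same ones but for Ccl9 and Ccl6) and the same 2 downregulated, or 36%, against 8.55% of all tested genes up and 7.88% down (16.4% in all). As a description, the median log2 fold change of the 25 tested genes was 2.45 relative to Halo-NLS and 1.47 relative to SOX9-mEGFP_budding, where the medians of all tested genes were 0.03 and -0.04. For SOX9-Halo_spheroid the corresponding medians were 0.90 and 0.63, beside -0.01 and -0.08 for all tested genes. With genes at 0 in a group set at their bound of 3 counts per library, or left out where the other group was at the bound too, the 4 medians were 2.45, 1.47, 0.89 and 0.57. A gene could have enough counts for testing through a single condition, as Cxcl5 and Ccl2 did through SOX9-mEGFP_spheroid. Such genes can raise the medians by selection, so the medians do not show a shift of the list.

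The change from budding to spheroid was compared between the SOX9-Halo and SOX9-mEGFP lines, which share no library. Their spheroids also differed in passage and further transgene, so a difference between the lines cannot be assigned to the line or its tag. Of the 25 tested genes, 20 (80%) changed with the same sign in both lines, against 70.6% of all tested genes. In both lines 6 (24%) were called, against 13.1% of all tested genes. All 6 had the same sign, as did 2248 of the 2301 genes called in both lines among all tested genes. Il33, Csf1, Cxcl16 and Il34 rose, and Ccl25 and Ccl24 fell. A further 5 were called in the SOX9-Halo line alone (Cxcl1 up, Ccl28, Ccl9, Ccl6 and Il11 down), or 20% against 12.2% of all tested genes, and 3 in the SOX9-mEGFP line alone (Tnf, Cxcl2 and Cxcl5, all up), or 12% against 3.33%. The difference between the lines itself was called for 5 genes (20%), against 7.39% of all tested genes. Il33 was the one with a higher change in the SOX9-Halo line, where 1.81% of all tested genes were called, and Ccl9, Ccl28, Ccl6 and Tnf had a lower one, as 5.58% of all tested genes did.

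**Figure D2:**
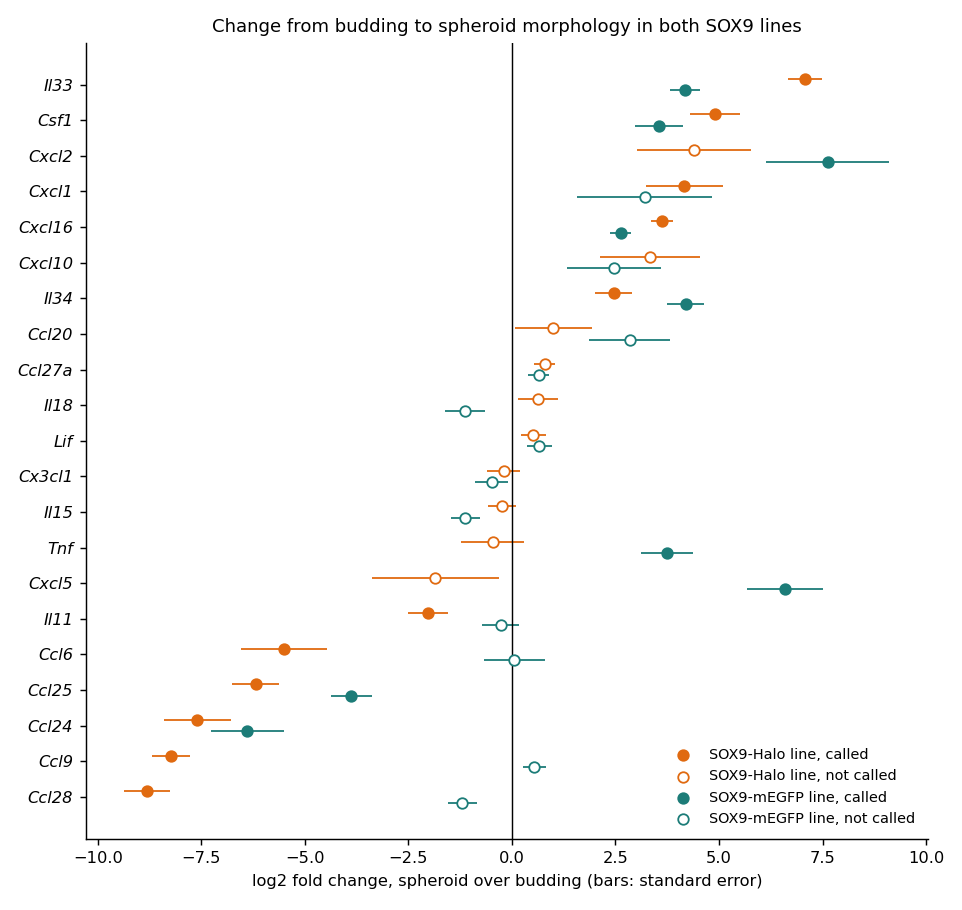
Log2 fold change from budding to spheroid (x axis) of the 21 genes (rows), with standard errors as bars, in the SOX9-Halo line (orange) and the SOX9-mEGFP line (teal). Filled points were called and open points were not. Ccl9, Ccl28 and Ccl6 lie far to the left in the SOX9-Halo line and between -1.20 and 0.54 in the SOX9-mEGFP line, and the positions of Ccl24, Cxcl5 and Cxcl2, which had 0 to 3 counts in a group, depend on the small count that the fit adds.

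Before the change of morphology, few genes of the list differed from the control. Ccl9 and Il33 were upregulated in both SOX9-Halo_budding and SOX9-mEGFP_budding relative to Halo-NLS, and none was downregulated, or 8% of the tested genes of the list in each line, against 3.75% and 2.76% of all tested genes called. By direction, these were 2.49% up and 1.26% down in SOX9-Halo_budding and 1.99% up and 0.763% down in SOX9-mEGFP_budding. Between the budding lines none of the 25 genes was called, against 0.29% of all tested genes higher and 0.165% lower in SOX9-Halo_budding (0.456% in all). In DESeq2 the call of none held as well, and at an unadjusted p under 0.05 2 of the 25 (Ccl9 and Ccl24) differed in edgeR. Between the spheroid lines, 3 genes were higher in SOX9-Halo_spheroid (Il33, Csf1 and Cxcl1) and 7 were lower (Ccl9, Ccl28, Ccl6, Ccl25, Tnf, Cxcl5 and Il34), or 40% in all, against 3.59% of all tested genes higher and 9.58% lower (13.2% in all).

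CXC chemokines with the ELR motif attract neutrophils through CXCR2. Cxcl1 (ENSMUSG00000029380, chr5:91039094-91040974), Cxcl2 (ENSMUSG00000058427, chr5:91051730-91053797) and Cxcl5 (ENSMUSG00000029371, chr5:90907186-90909483) lie in a single cluster with Cxcl3 and Cxcl15, and Cxcl1 and Cxcl2 are 10755 bases apart. Cxcl5 had no count in the 3 Halo-NLS libraries and normalized counts of 84.3, 60.1 and 76.2 in SOX9-mEGFP_spheroid, at least 19.8-fold higher when 3 counts per library are allowed. In SOX9-mEGFP_budding, 2 reads of Cxcl5 were counted in all, which gave a ratio of 114 (95% counting interval 31.1 to 944, adjusted p = 0.00013). In SOX9-Halo_spheroid a single read was counted, and the SOX9-mEGFP_spheroid libraries did not overlap any other condition.

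Cxcl2 had normalized counts of 45.3, 120.2 and 100.003 in SOX9-mEGFP_spheroid and of 2.51 or less in Halo-NLS and both budding conditions. The ratio of SOX9-mEGFP_spheroid to Halo-NLS, where 2 reads were counted, was 106 (95% counting interval 29.0 to 877), and the adjusted p of edgeR was 0.0014. In SOX9-Halo_spheroid the values were 65.1, 1.89 and 0.900, a single high library, and the gene was not called there relative to Halo-NLS (adjusted p = 0.022). It became called there without SOX9-Halo_spheroid replicate 2 or 3 (adjusted p = 0.008 and 0.0057). Without replicate 1, Cxcl2 was lower than in SOX9-mEGFP_spheroid (log2 fold change -5.87, adjusted p = 8.5e-05).

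Cxcl1 showed the reverse order of the lines. It had 141, 16.1 and 16.2 normalized counts in SOX9-Halo_spheroid, all above the highest value elsewhere, 7.54 in Halo-NLS replicate 3, and 6.21, 4.01 and 1.90 in SOX9-mEGFP_spheroid. Its log2 fold change in SOX9-Halo_spheroid was 3.89 relative to Halo-NLS (SE 0.94, adjusted p = 0.0032), 4.16 relative to SOX9-Halo_budding and 3.76 relative to SOX9-mEGFP_spheroid. Without SOX9-Halo_spheroid replicate 1 these values were 2.09, 2.36 and 1.96, and none passed the threshold (adjusted p = 0.038, 0.022 and 0.069). The calls of Cxcl1 were also lost with only the libraries compared (adjusted p = 0.016, 0.014 and 0.015). The first was lost without Halo-NLS replicate 1 or 2 (0.012 and 0.016), the next without SOX9-Halo_budding replicate 1 (0.013), and the last without any 1 of the SOX9-mEGFP_spheroid libraries (0.018 to 0.032). Of the other genes in the cluster, Cxcl15 had 4, 9 and 7 counts in SOX9-mEGFP_spheroid, 1, 2 and 0 in SOX9-Halo_spheroid and none in the other conditions, and Cxcl3 did not exceed 10 counts in any library.

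Among the other CXC chemokines, Cxcl16 (ENSMUSG00000018920, chr11:70344517-70352620), a membrane-bound chemokine and scavenger receptor that binds CXCR6, rose in spheroids of both lines. It had 320.2, 383 and 382 normalized counts in Halo-NLS, 1596, 2299 and 2036 in SOX9-mEGFP_spheroid and 4004, 3401 and 3394 in SOX9-Halo_spheroid. The control and the 2 spheroid conditions did not overlap, and the budding libraries lay between 219.6 and 436. The log2 fold change was 3.31 (SE 0.26, adjusted p = 1.2e-07) in SOX9-Halo_spheroid and 2.45 (SE 0.25, adjusted p = 2.9e-06) in SOX9-mEGFP_spheroid relative to Halo-NLS, and 3.63 and 2.63 relative to the budding organoids. The difference between the spheroid lines, 0.86, missed the threshold (adjusted p = 0.016).

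The exons of Cxcl16 share 84.8% of their bases with Med11 and Zmynd15, which lie on the opposite strand. The counting was unstranded and dropped reads that fall on more than 1 gene, so Cxcl16 was measured on the rest of its exons and reads there cannot be assigned to a strand. Zmynd15, named here because of this overlap after its values were seen, rose from 10.2 ± 2.11 (SD, n = 3) in Halo-NLS to 615 ± 109.6 in SOX9-Halo_spheroid and 137 ± 20.4 in SOX9-mEGFP_spheroid, whereas Med11 was called in none of the comparisons. Of the other tested genes, Cxcl11 (41.7% of bases), Cxcl5 (27.6%), Ccl27a (26.4%), Il1a (13.7%) and Cx3cl1 (10.8%) also share over 10% of their exons with another gene. The part of the overlaps in these values was not tested.

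Cxcl10, an interferon-induced ligand of CXCR3, was called in no comparison with all libraries. It had 24.8, 69.1 and 48.6 normalized counts in SOX9-mEGFP_spheroid, 143, 2.84 and 3.60 in SOX9-Halo_spheroid and at most 9.72 in the other conditions. The log2 fold change relative to Halo-NLS was 3.14 in SOX9-mEGFP_spheroid (SE 1.24, adjusted p = 0.047) and 3.18 in SOX9-Halo_spheroid (SE 1.24, adjusted p = 0.046), the latter carried by 1 library. Without SOX9-Halo_spheroid replicate 1, Cxcl10 was called lower there than in SOX9-mEGFP_spheroid (log2 fold change -3.82, adjusted p = 0.005). Cxcl11, a further CXCR3 ligand, was tested but too low to be called and had at most 26.4 normalized counts, in Halo-NLS replicate 3. Cxcl13 had 0 to 10 counts in the budding and control libraries and none in the 6 spheroid libraries, and Cxcl9, Cxcl12, Cxcl14 and Cxcl17 had at most 12 counts in any library.

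**Figure D3:**
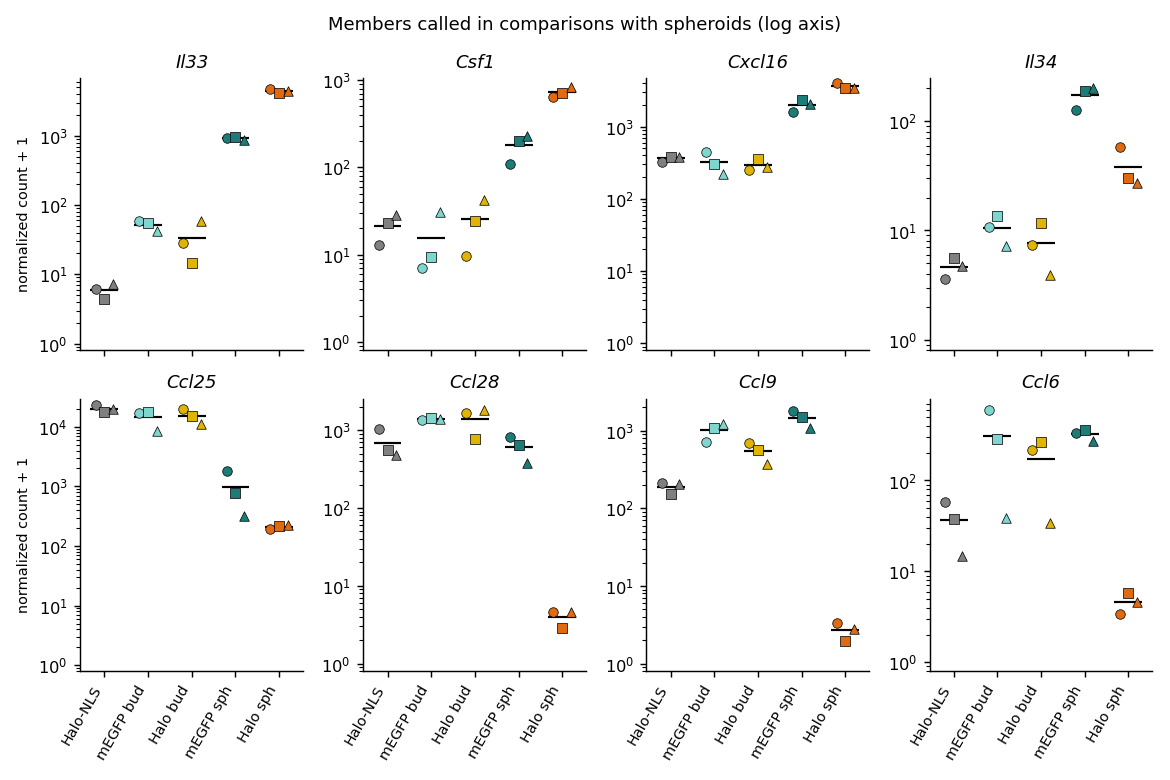
Normalized counts plus 1 (y axis, logarithmic) of 8 called genes by condition (x axis, mEGFP and Halo standing for the SOX9 lines). Circles, squares and triangles are replicates 1, 2 and 3, and lines are means. Il33, Csf1 and Cxcl16 rise from Halo-NLS to SOX9-mEGFP_spheroid and SOX9-Halo_spheroid, and Ccl28, Ccl9 and Ccl6 are at 4.73 normalized counts or less in SOX9-Halo_spheroid.

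Among the CC chemokines, Ccl25 (ENSMUSG00000023235, chr8:4374661-4540760), the ligand of CCR9 that guides T cells to the small intestine, showed the greatest loss of reads. It had 22768, 17963 and 19582 normalized counts in Halo-NLS, 8353 to 19599 in the budding SOX9 libraries, 1825, 778 and 319 in SOX9-mEGFP_spheroid and 191, 213 and 228 in SOX9-Halo_spheroid. All spheroid libraries lay below all others. Relative to Halo-NLS, the change on the log2 scale was -6.58 (SE 0.57, adjusted p = 2.7e-07) in SOX9-Halo_spheroid and -4.37 (SE 0.51, adjusted p = 9.3e-06) in SOX9-mEGFP_spheroid. Between the spheroid lines it was -2.21 (adjusted p = 0.0029), a call that was kept in 2 of 6 fits with a library left out and ranged there from -2.63 to -1.40, the latter without SOX9-mEGFP_spheroid replicate 1.

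The 5 enterocyte markers Alpi, Fabp1, Apoa1, Apoa4 and Sis were lower in spheroids, as Ccl25 was. Their summed normalized counts were 165117 to 324302 in Halo-NLS, 6845 to 17005 in SOX9-mEGFP_spheroid and 58.6 to 185 in SOX9-Halo_spheroid, with none at 0. All 5 were downregulated relative to Halo-NLS, against 15.3% of all tested genes in SOX9-Halo_spheroid and 12.1% in SOX9-mEGFP_spheroid. Relative to the budding organoids, all 5 were downregulated in SOX9-Halo_spheroid and 3 in SOX9-mEGFP_spheroid (Sis, Fabp1 and Alpi), against 14.7% and 7.88%. The 4 enteroendocrine markers Chga, Chgb, Neurod1 and Sct were downregulated in each of these comparisons. The part of these cell types in the fall of Ccl25 was not tested. In RNA from whole organoids, fewer cells of a type and less RNA per cell cannot be told apart.

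Ccl28 (ENSMUSG00000074715, chr13:120085355-120115895), a mucosal chemokine that binds CCR10 and CCR3, was lost in a single condition. Its normalized counts were 1025, 551 and 473 in Halo-NLS, 763 to 1805 in the budding SOX9 libraries, 812, 642 and 373 in SOX9-mEGFP_spheroid and 3.55, 1.89 and 3.60 in SOX9-Halo_spheroid. The log2 fold change of SOX9-Halo_spheroid was -7.77 relative to Halo-NLS (SE 0.54, adjusted p = 3.4e-08) and -8.81 relative to SOX9-Halo_budding. In SOX9-mEGFP_spheroid it was -0.16 (adjusted p = 0.72) relative to Halo-NLS and -1.20 (adjusted p = 0.021) relative to SOX9-mEGFP_budding. In budding organoids Ccl28 was not called relative to Halo-NLS with all libraries and was called higher without Halo-NLS replicate 1, at 1.46 for SOX9-Halo and 1.45 for SOX9-mEGFP (adjusted p = 0.0087 and 0.0093). The difference between the lines was -7.62 (SE 0.64, adjusted p = 1.8e-06) and remained called with each library left out.

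Ccl9 (ENSMUSG00000019122, chr11:83463745-83473161) and Ccl6 (ENSMUSG00000018927, chr11:83478708-83483913) are neighbours, 5546 bases apart, and encode rodent chemokines that bind CCR1. Ccl9 had 209, 153 and 205 normalized counts in Halo-NLS, 684, 561 and 375 in SOX9-Halo_budding and 714, 1085 and 1221 in SOX9-mEGFP_budding. It reached 1805, 1512 and 1068 in SOX9-mEGFP_spheroid but 2.37, 0.946 and 1.80 in SOX9-Halo_spheroid. It was thus above the control in every other SOX9 library and near 0 in SOX9-Halo_spheroid.

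The log2 fold change of Ccl9 relative to Halo-NLS was 2.41 in SOX9-mEGFP_budding (SE 0.30, adjusted p = 0.00019) and 1.52 in SOX9-Halo_budding (SE 0.29, adjusted p = 0.0049). The latter call was lost without Halo-NLS replicate 2 (adjusted p = 0.028), Halo-NLS replicate 3 (0.016) or SOX9-Halo_budding replicate 1 (0.021), with log2 fold changes of 1.39, 1.58 and 1.32. In spheroids relative to Halo-NLS it was 2.95 in the SOX9-mEGFP line and -6.72 in the SOX9-Halo line (SE 0.30 and 0.45, adjusted p = 2.5e-06 and 2.1e-08). From budding to spheroid, the lines differed in the change by -8.77 (SE 0.53, adjusted p = 1.3e-07).

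Ccl6 varied more between replicates. It had 57.5, 36.7 and 13.8 normalized counts in Halo-NLS, 213, 265 and 33.2 in SOX9-Halo_budding, 603, 288 and 38.2 in SOX9-mEGFP_budding, 333, 361 and 270.5 in SOX9-mEGFP_spheroid and 2.37, 4.73 and 3.60 in SOX9-Halo_spheroid. Only SOX9-Halo_spheroid stood clear of all other conditions. Its fall relative to SOX9-Halo_budding was -5.51 on the log2 scale (SE 1.04, adjusted p = 0.00052). The rise in SOX9-mEGFP_spheroid relative to Halo-NLS, 3.16 (adjusted p = 0.0064), held in 1 of 6 fits with a library left out, namely that without Halo-NLS replicate 1, with log2 fold changes of 2.77 to 3.66 over the 6 fits. The difference between the lines, -5.57 (adjusted p = 0.0083), held in 3 of 12 such fits, with values of -6.49 to -4.97.

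Goblet and Paneth cell markers were low where Ccl28, Ccl9 and Ccl6 were low, and so were enterocyte markers. Between the spheroid lines, all 5 goblet, all 5 enterocyte and 3 of 4 tested Paneth cell markers were lower in SOX9-Halo_spheroid. This compares with 9.58% of all tested genes. Of the 4 enteroendocrine, 4 tested tuft cell and 3 tested M cell markers, 1, 1 and none were called lower. The 5 goblet cell markers summed to 75534 to 119670.1 normalized counts in SOX9-mEGFP_spheroid and to 566 to 768 in SOX9-Halo_spheroid, with none at 0. The 5 Paneth cell markers summed to 37473 to 45473 and to 30.8 to 46.8, with Mptx2 at 0 in both, and Mmp7 made up most of the former. Of the 4 tested Paneth cell markers, Ang4, Defa24 and Lyz1 were downregulated in both spheroid conditions relative to Halo-NLS, whereas Mmp7 was upregulated in SOX9-mEGFP_spheroid and downregulated in SOX9-Halo_spheroid. All 5 goblet cell markers were downregulated in SOX9-Halo_spheroid relative to Halo-NLS, and none was called in SOX9-mEGFP_spheroid. Of all tested genes, 15.3% were downregulated in SOX9-Halo_spheroid, and 12.1% were downregulated and 15.3% upregulated in SOX9-mEGFP_spheroid. The part of these cells in the values of the 3 chemokines was not tested.

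Ccl24, an eosinophil chemokine that binds CCR3 (ENSMUSG00000004814, chr5:135598668-135601905), was low but uniform. It had 17.0, 18.4 and 21.4 normalized counts in Halo-NLS, 8.50 to 35.0 in the budding SOX9 libraries and no count in any of the 6 spheroid libraries. With 3 counts per library allowed, it was at least 6.24-fold lower than Halo-NLS in SOX9-Halo_spheroid (adjusted p = 3.2e-05) and at least 6.65-fold lower in SOX9-mEGFP_spheroid (adjusted p = 4.2e-05).

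Ccl20, the CCR6 ligand of the epithelium over lymphoid follicles, was called in no comparison with all libraries. Its normalized counts were 33.98, 40.2 and 56.6 in Halo-NLS, 60.7 to 140.0 in the budding SOX9 libraries, 474, 641 and 374 in SOX9-mEGFP_spheroid and 589.9, 16.1 and 13.5 in SOX9-Halo_spheroid. The SOX9-mEGFP_spheroid libraries all lay above Halo-NLS, with a log2 fold change of 3.51 (SE 1.02) that just missed the threshold (adjusted p = 0.011). SOX9-Halo_spheroid ran from the second highest to the lowest of all 15 values, and its direction turned on replicate 1. Relative to Halo-NLS, the log2 fold change of Ccl20 there was 2.23 with all libraries (adjusted p = 0.074) and -1.54 without replicate 1, which was called (adjusted p = 0.0052). Relative to SOX9-Halo_budding it went from 1.00 to -2.78 (adjusted p = 6.5e-05) and relative to SOX9-mEGFP_spheroid from -1.27 to -5.05 (adjusted p = 2.3e-06). The difference between the lines went from -1.85 to -5.63 (adjusted p = 7.9e-06).

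Ccl27a was higher in both spheroid conditions by slightly less than 2-fold, with log2 fold changes of 0.89 (adjusted p = 0.012) and 1.00 (0.998 before rounding, adjusted p = 0.006) relative to Halo-NLS, and was not called. Without Halo-NLS replicate 1 both were called, at 1.10 and 1.21 (adjusted p = 0.0058 and 0.0032). The monocyte chemokine Ccl2 was tested but its mean was too low to be called. It had 63.0, 15.0 and 41.9 normalized counts in SOX9-mEGFP_spheroid, none in Halo-NLS or SOX9-Halo_budding and at most 2.37 elsewhere, at least 10.8-fold higher than in Halo-NLS. Ccl5 had 18, 0 and 4 counts in SOX9-Halo_spheroid, 5, 9 and 7 in SOX9-mEGFP_spheroid and at most 1 in every other library.

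Cx3cl1, the membrane-bound ligand of CX3CR1 on macrophages of the gut, was called in no comparison. Its normalized counts were 3155, 4715 and 1962 in Halo-NLS, 1361 to 3549.6 in the budding SOX9 libraries, 1765, 1695 and 2174 in SOX9-mEGFP_spheroid and 1868, 1805 and 1755 in SOX9-Halo_spheroid. The conditions overlapped apart from SOX9-Halo_spheroid and Halo-NLS, and the log2 fold changes relative to Halo-NLS were -0.86 (SE 0.40, adjusted p = 0.091) and -0.80 (SE 0.40, adjusted p = 0.11) in the SOX9-Halo and SOX9-mEGFP spheroids.

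In the IL-1 family, Il33 (ENSMUSG00000024810, chr19:29902483-29938933) had the largest increase of the list in SOX9-Halo_spheroid relative to Halo-NLS. It had 5.23, 3.44 and 6.29 normalized counts in Halo-NLS, 57.1, 54.0 and 41.3 in SOX9-mEGFP_budding and 27.05, 13.6 and 57.6 in SOX9-Halo_budding. They were 934, 947 and 863 in SOX9-mEGFP_spheroid and 4749.8, 4151 and 4402 in SOX9-Halo_spheroid. Every budding SOX9 library thus lay above every control library and below every spheroid library, and the spheroid lines did not overlap.

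Relative to Halo-NLS, the log2 fold change of Il33 was 9.77 (SE 0.50, adjusted p = 2.7e-09) in SOX9-Halo_spheroid and 7.49 (SE 0.47, adjusted p = 3.3e-08) in SOX9-mEGFP_spheroid. In budding organoids it was 3.32 (SE 0.46, adjusted p = 0.00056) for SOX9-mEGFP and 2.69 (SE 0.47, adjusted p = 0.003) for SOX9-Halo, and the latter call was lost without Halo-NLS replicate 2 (adjusted p = 0.02) or replicate 3 (adjusted p = 0.012). From budding to spheroid it rose by 7.08 in the SOX9-Halo line and by 4.17 in the SOX9-mEGFP line. The difference, 2.91 (SE 0.48, adjusted p = 0.00075), remained called in all 12 fits with a library left out.

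Il18, expressed constitutively by the epithelium, was called in no comparison. Its normalized counts were 323, 133 and 91.8 in Halo-NLS, 138, 132 and 99.1 in SOX9-mEGFP_spheroid and 360.1, 343 and 315 in SOX9-Halo_spheroid, and the log2 difference between the spheroid lines was 1.46 (SE 0.49, adjusted p = 0.042). Il1a was too low to be called, with 13.3, 16.02 and 17.1 normalized counts in SOX9-mEGFP_spheroid and 1.31 or less in Halo-NLS. Il1b had at most 2 counts in any library.

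In the IL-6 family, Lif, which signals through LIFR and gp130, had 190.0 to 637 normalized counts over all libraries, and its largest log2 fold change, 0.66 in SOX9-mEGFP_spheroid relative to SOX9-mEGFP_budding, was not called (SE 0.30, adjusted p = 0.12). Il11 (ENSMUSG00000004371) was low, with 23.9, 17.5 and 13.7 normalized counts in SOX9-Halo_budding and 7.11, 4.73 and 1.80 in SOX9-Halo_spheroid. These groups did not overlap, and the log2 fold change was -2.04 (SE 0.48, adjusted p = 0.0032), a call kept in 3 of 6 fits with a library left out, where it ranged from -2.46 to -1.69. Il6 had at most 2 counts in any library.

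Il15, which sustains intraepithelial lymphocytes, was called in no comparison with all libraries and had its lowest values in SOX9-mEGFP_spheroid, with 59.5, 54.1 and 23.8 normalized counts beside 132, 107 and 67.9 in Halo-NLS (log2 fold change -1.16, SE 0.35, adjusted p = 0.014, and called at -1.38 and 0.0075 without Halo-NLS replicate 3). Il23a had at most 10.1 normalized counts in control and budding libraries, 15.97, 22.0 and 11.4 in SOX9-mEGFP_spheroid and 34.4, 8.51 and 16.2 in SOX9-Halo_spheroid, and was too low to be called. Tslp was not tested and had 10, 6 and 12 counts in SOX9-mEGFP_spheroid and at most 5 in any other library.

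Both ligands of CSF1R rose in spheroids. Csf1 (ENSMUSG00000014599, chr3:107648364-107667806) had 11.8, 21.8 and 27.7 normalized counts in Halo-NLS, 6.07 to 40.98 in the budding SOX9 libraries, 108, 201 and 230.5 in SOX9-mEGFP_spheroid and 646, 711 and 823 in SOX9-Halo_spheroid. Neither spheroid condition overlapped any other. Relative to Halo-NLS, its log2 fold change was 5.14 (SE 0.61, adjusted p = 6.6e-06) in SOX9-Halo_spheroid and 3.13 (SE 0.58, adjusted p = 0.00048) in SOX9-mEGFP_spheroid. Between the spheroid lines it was 2.01 (adjusted p = 0.0095), a call that was lost with any 1 of the 6 libraries left out, at values of 1.74 to 2.22.

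Il34 (ENSMUSG00000031750, chr8:111423928-111532584) rose most in the other line. Its normalized counts were 2.61, 4.59 and 3.77 in Halo-NLS, 2.93 to 12.5 in the budding SOX9 libraries, 127, 190.3 and 201 in SOX9-mEGFP_spheroid and 56.9, 29.3 and 26.1 in SOX9-Halo_spheroid. On the log2 scale it rose relative to Halo-NLS by 5.50 (SE 0.50, adjusted p = 8.5e-07) in SOX9-mEGFP_spheroid and 3.29 (SE 0.51, adjusted p = 8.5e-05) in SOX9-Halo_spheroid. Between the spheroid lines it was -2.21 (SE 0.38, adjusted p = 0.00053), opposite in sign to Csf1. The receptor gene Csf1r, also on the list of leukocyte markers, had 68.3, 74.1 and 179 normalized counts in SOX9-mEGFP_spheroid, 2.37, 2.84 and 9.90 in SOX9-Halo_spheroid and 0.779 to 32.7 elsewhere. Csf2 had 0 to 13 counts and Csf3 0 to 2, and neither was tested.

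Tnf (ENSMUSG00000024401, chr17:35418357-35420983), the founding member of the TNF family, had 98.5, 141 and 156 normalized counts in SOX9-mEGFP_spheroid, 13.0, 1.89 and 2.70 in SOX9-Halo_spheroid and 3.64 to 18.7 in all other libraries. SOX9-mEGFP_spheroid stood clear of every other condition. The log2 fold change was 4.30 relative to Halo-NLS (SE 0.68, adjusted p = 0.00014) and 3.74 relative to SOX9-mEGFP_budding (SE 0.63, adjusted p = 0.00037). In SOX9-Halo_spheroid it was -0.25 relative to Halo-NLS (SE 0.81, adjusted p = 0.82). The difference between the lines, -4.21 (SE 0.99, adjusted p = 0.0097), was at the edge of the threshold and held in 2 of 12 fits with a library left out, with values of -5.43 to -3.42.

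Leukocyte genes were examined beside Tnf, Cxcl2, Cxcl5 and Ccl2, which myeloid cells also express. The 10 markers summed to 2383 to 3779.7 normalized counts in Halo-NLS, 4777 to 5046 in SOX9-mEGFP_spheroid and 520.4 to 1089.7 in SOX9-Halo_spheroid, and 397 to 4574 of these came from Lcp1 alone. In SOX9-mEGFP_spheroid relative to Halo-NLS, 3 of the 6 tested markers were upregulated (Cd68, Cd74 and Csf1r) and none downregulated. This was 50% called, against 27.5% of all tested genes. Relative to SOX9-mEGFP_budding the same 3 were upregulated and Itgam was downregulated (66.7% against 16.4%). In SOX9-Halo_spheroid, Cd68 was upregulated and Lcp1 and Itgam downregulated, both relative to Halo-NLS and to SOX9-Halo_budding (50% in each, against 28.9% and 25.3%). The pan-leukocyte gene Ptprc had 3.55, 5.01 and 0.952 normalized counts in SOX9-mEGFP_spheroid and 0 in SOX9-Halo_spheroid, and Adgre1 was at 0 in SOX9-mEGFP_spheroid. Pf4, a platelet and megakaryocyte chemokine outside the naming pattern, had 168, 127 and 97.1 normalized counts in SOX9-mEGFP_spheroid and a single read in all other libraries together. The part of leukocytes in these values was not tested beyond these levels.

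**Figure D4:**
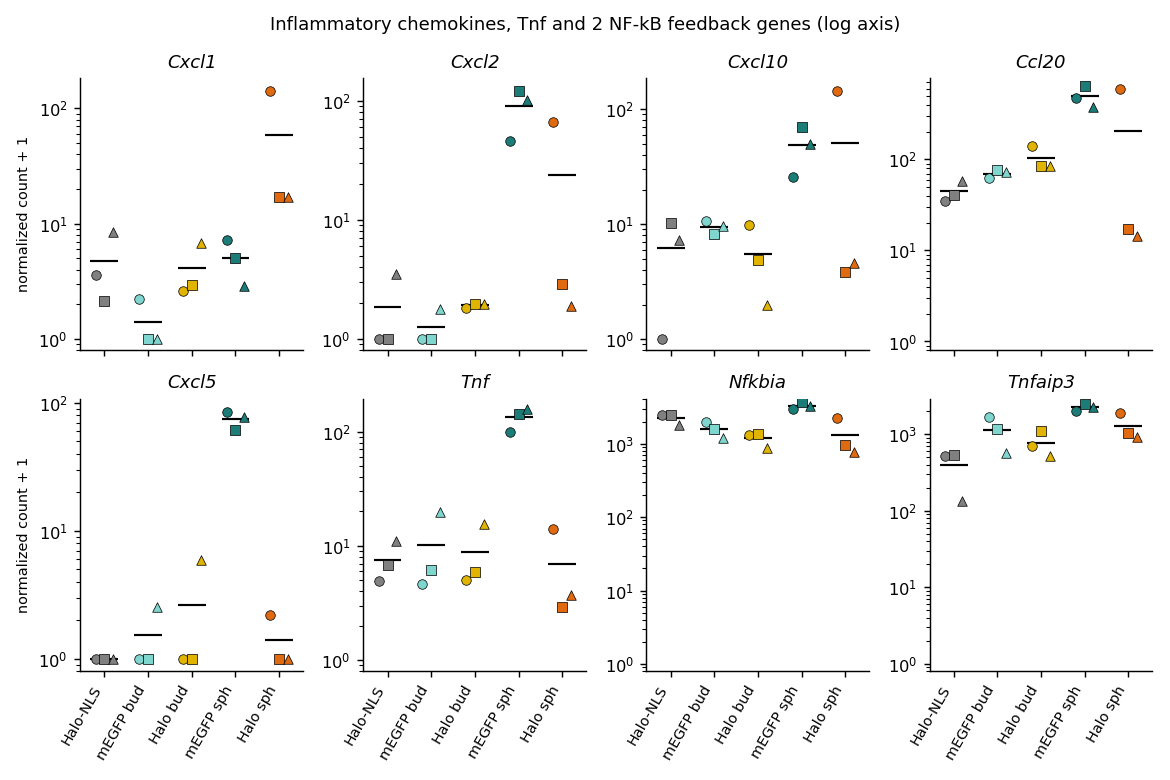
Normalized counts plus 1 (y axis, logarithmic) of Cxcl1, Cxcl2, Cxcl10, Ccl20, Cxcl5, Tnf and the NF-kB feedback inhibitors Nfkbia and Tnfaip3 by condition (x axis), with circles, squares and triangles for replicates 1, 2 and 3 and lines for means. Outside the Cxcl5 panel, SOX9-Halo_spheroid replicate 1 lies above replicates 2 and 3 in every panel, as with 589.9 against 16.1 and 13.5 for Ccl20. For Cxcl5 a single read was counted in that condition, which gave 1.18 in replicate 1 against 0.

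SOX9-Halo_spheroid replicate 1 was set apart by a group of inflammatory genes. Ccl20 had 589.9 normalized counts there against 16.1 and 13.5 in replicates 2 and 3, Cxcl10 143 against 2.84 and 3.60, Cxcl1 141 against 16.1 and 16.2 and Cxcl2 65.1 against 1.89 and 0.900. The same library was the highest of its condition for the NF-kB target Nfkbia (2209 against 951 and 773), for Tnfaip3 (1932 against 1031 and 934) and for the IL-1 receptor antagonist Il1rn (1452 against 603 and 561). By contrast Il33, Csf1, Cxcl16 and Ccl25 in that library differed from both others by at most 1.27-fold. These genes were picked out after their values were seen, and a single library allows no test.

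Receptors were mostly low in these epithelial cultures. Of 23 chemokine receptor genes, 4 were tested, and Ccrl2 and Cxcr4 were called, both upregulated in both spheroid conditions relative to Halo-NLS and to the budding organoids. This was 50% of the tested receptors in each comparison. Of all tested genes, 28.9% were called in SOX9-Halo_spheroid and 27.5% in SOX9-mEGFP_spheroid relative to Halo-NLS, and 25.3% and 16.4% relative to the budding organoids. Ccrl2, an atypical receptor, rose from 5.23, 6.89 and 13.8 normalized counts in Halo-NLS to 45.3, 124 and 83.8 in SOX9-mEGFP_spheroid and 115, 91.8 and 91.8 in SOX9-Halo_spheroid. Cxcr4, the receptor of CXCL12, rose from 9.15, 0 and 6.29 to 80.8, 48.1 and 86.7 and to 27.2, 32.2 and 33.3. Its ligand gene Cxcl12 had no count in the 6 spheroid libraries.

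Of 25 cytokine receptor and antagonist genes, 16 were tested. In SOX9-Halo_spheroid 7 were upregulated and 1 downregulated relative to Halo-NLS (50% called, against 28.9% of all tested genes), and in SOX9-mEGFP_spheroid 8 and 2 (62.5% against 27.5%). Il6st, which encodes the gp130 subunit shared by the receptors for LIF, IL-11 and IL-6, had 324, 283 and 181 normalized counts in Halo-NLS, 558 to 897 in the budding SOX9 libraries and 1305 to 1778 in the spheroid libraries, with no overlap between these 3 sets. Its log2 fold change relative to Halo-NLS was 2.61 in SOX9-Halo_spheroid and 2.59 in SOX9-mEGFP_spheroid (adjusted p = 4.1e-07 and 8.5e-07). Il1rn rose by 4.89 in SOX9-mEGFP_spheroid (3117, 3489 and 3014 normalized counts against 129, 91.8 and 103 in Halo-NLS, adjusted p = 1.2e-06) and by 3.01 in SOX9-Halo_spheroid (adjusted p = 3.8e-05). Tnfrsf1b, a receptor of TNF, was called only between the spheroid lines, lower in SOX9-Halo_spheroid (-1.38, adjusted p = 0.0053). Il1rl1, the IL-33 receptor, named here after its values were seen, had at most 7.29 normalized counts in any library.

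Of 27 genes of the NF-kB pathway, 26 were tested, and 5 were upregulated and 3 downregulated in SOX9-Halo_spheroid relative to Halo-NLS (30.8% called, near the 28.9% of all tested genes), and 5 and none in SOX9-mEGFP_spheroid (19.2% against 27.5%). Relative to the budding organoids, 4 were upregulated and 4 downregulated in SOX9-Halo_spheroid (30.8% called, against 25.3% of all tested genes). In SOX9-mEGFP_spheroid 1 was upregulated and none downregulated (3.85% against 16.4%). Of the 3 most abundant genes called in any comparison, Rela and Nfkb2 were not called relative to Halo-NLS. Rela rose by 1.46 on the log2 scale (adjusted p = 0.00029) and Nfkb2 by 2.24 (adjusted p = 2e-05) in SOX9-Halo_spheroid relative to SOX9-Halo_budding. In SOX9-mEGFP_spheroid relative to SOX9-mEGFP_budding the values were 0.18 and 0.49, not called, and the difference between the lines was called for Nfkb2 (1.74, adjusted p = 0.0087) and not for Rela (1.28, adjusted p = 0.028). Nfkbia was lower in SOX9-Halo_spheroid than in SOX9-mEGFP_spheroid (-1.33, adjusted p = 0.0094).

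Of 17 tested genes that process or shed cytokines and chemokines, 2 (11.8%) were upregulated and 8 (47.1%) downregulated in SOX9-Halo_spheroid relative to Halo-NLS, against 13.6% and 15.3% of all tested genes. In SOX9-mEGFP_spheroid 9 (52.9%) were upregulated and 1 (5.88%) downregulated, against 15.3% and 12.1% of all tested genes, and the budding-to-spheroid change differed between the lines for 11 (64.7%, against 7.39% of all tested genes), all lower in the SOX9-Halo line. Nlrp6, an epithelial inflammasome sensor, had 13238, 18777 and 19778 normalized counts in Halo-NLS, 15863, 11097 and 13644 in SOX9-mEGFP_spheroid and 1115, 519 and 379.9 in SOX9-Halo_spheroid. Dpp4, a protease that trims many chemokines, had 4833, 2088 and 1903, then 4245, 4558 and 3222, then 184, 119 and 95.4. Mmp7, a Paneth cell protease, had 571, 458 and 371, then 44544, 43802 and 37133, then 16.6, 14.2 and 12.6.

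Casp1 and Pycard, named after their values were seen as the protease and adaptor that mature IL-18, had 0.946 to 4.501 and 0.946 to 2.70 normalized counts in SOX9-Halo_spheroid, beside 999 to 2656 and 3680.0 to 4036 in Halo-NLS. Pycard was also downregulated in SOX9-mEGFP_spheroid, with 666, 359 and 186 normalized counts (log2 fold change -3.25 relative to Halo-NLS, adjusted p = 4.8e-06), whereas Casp1 had 1226, 1046 and 471 there and was not called (adjusted p = 0.08). Il18 itself had 315 to 360.1 normalized counts in the 3 SOX9-Halo_spheroid libraries.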

How the data were processed

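Poly-A RNA of 15 organoid libraries was sequenced as paired-end reads of 150 bases. The authors trimmed the reads with cutadapt 4.5, aligned them with STAR to mm39, retained those with a unique position and assigned them to Ensembl GRCm39 genes with HTSeq 2.0.2 in union mode without strand, and the deposited files hold these raw counts per gene and library, not normalized. Reads on no gene (1.83% to 6.09% of reads) and on more than 1 gene (9.65% to 13.6%) stayed out of library sizes and tests. Conditions were taken from the sample labels. Tables of the authors' own comparisons and normalized values were not used here.

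Counts of 78298 genes were filtered by condition with filterByExpr, which left 17560, and all 15 libraries were fitted together with edgeR 4.0.16 (TMM scaling, glmQLFit, quasi-likelihood F test, Benjamini-Hochberg) on R 4.3.3, with 1 coefficient per condition and no replicate block. Calls required an adjusted p of 0.01 or less, a change of 2-fold or more and normalized counts averaging 10 or more, the thresholds of the study's methods. The fit was tested on simulated counts. Levels between genes were compared per kilobase of the union of exons in GENCODE M39, a length that is long, and a level that is low, for genes with rare long transcripts. Named are all genes of the list that were called or averaged 10 normalized counts or more, and the 3 most abundant called genes of each related list. The members and lists were chosen with earlier results of these data known. RefSeq promoter windows were placed on GRCm39 by exact match. Where no read was counted, up to 3 are allowed for, and such limits and intervals cover counting error only.

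Same-numbered libraries were checked for pairing by correlating their deviations from the condition means over 15718 genes. All 3 pairs exceeded 0.1 only between SOX9-Halo_budding and SOX9-Halo_spheroid (r = 0.380, 0.247 and 0.354), so the numbers, by this correlation alone, pair the libraries there. Over all conditions, 17 of 30 same-numbered pairs exceeded 0.1. Single values ran from -0.292 (replicate 2 of Halo-NLS and SOX9-mEGFP_spheroid) to 0.771 (replicate 2 of Halo-NLS and SOX9-Halo_budding). Pairing between the other conditions was not settled by this rule. Alternatives were RLE scaling, library sizes alone, no filter, other thresholds, a replicate block, fits of only the libraries compared, each library left out, and DESeq2 1.42.0.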

Additional observations from a re-analysis of the deposited data

Results flagged for a closer look

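A test of the difference between the SOX9-Halo and SOX9-mEGFP lines, in how a gene changed from budding to spheroid, was passed by 5 genes of the list. The difference on the log2 scale was -8.77 for Ccl9, -7.62 for Ccl28, -5.57 for Ccl6, -4.21 for Tnf and 2.91 for Il33, each as the change in the SOX9-Halo line minus that in the SOX9-mEGFP line. Ccl9, Ccl28 and Ccl6 fell to 4.73 normalized counts or less in SOX9-Halo_spheroid and were not called in SOX9-mEGFP_spheroid relative to SOX9-mEGFP_budding, Tnf rose in the SOX9-mEGFP line, and Il33 rose in both. With 1 of the 12 libraries left out at a time, the calls of Ccl9, Ccl28 and Il33 were kept in every fit, that of Ccl6 in 3 and that of Tnf in 2.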

How the results depend on the processing

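Of 59 calls of a gene in a comparison, 48 were kept under every alternative, 11 were lost under at least 1 and none changed direction. Leaving out a library also added calls, among them Ccl20 in SOX9-Halo_spheroid relative to Halo-NLS, whose log2 fold change turned from 2.23 to -1.54 without replicate 1. RLE scaling, DESeq2, no filter and the replicate block lost none, library sizes alone lost 2 and fits of only the libraries compared 7. With no filter, 8 genes rather than 5 were higher in SOX9-Halo_spheroid than in Halo-NLS, 4 rather than 2 in each budding line, and the difference between the lines was called for 2 higher and 7 lower genes rather than 1 and 4. SOX9-mEGFP_spheroid had 4 rather than 2 genes lower than SOX9-mEGFP_budding at an adjusted p of 0.05 and in DESeq2. The 2 genes higher in SOX9-Halo_budding than in Halo-NLS became 1 at a log2 fold change of 2 and 0 with only the libraries compared, and ranged from 0 to 3 with a library left out, at 0 without Halo-NLS replicate 2 or 3 and 1 without SOX9-Halo_budding replicate 1. The 3 genes higher in SOX9-Halo_spheroid than in SOX9-mEGFP_spheroid ranged from 1 to 2, at 1 without SOX9-Halo_spheroid replicate 1 or any 1 SOX9-mEGFP_spheroid library. The 4 lower in the difference between the lines ranged from 2 to 4, at 2 without SOX9-mEGFP_budding replicate 2, SOX9-Halo_spheroid replicate 2 or 3, or SOX9-mEGFP_spheroid replicate 1 or 2. Fewer samples enter these fits, and the cause was not tested further. Scaling by library sizes alone moved the median over all genes by up to 0.31 (log2) and turned 2392 genes higher and 2682 lower in SOX9-Halo_spheroid relative to Halo-NLS into 3096 and 2248. With the replicate number as a block in a fit of the 6 SOX9-Halo libraries, chosen after seeing the data, 5 genes were higher and 6 lower in SOX9-Halo_spheroid than in SOX9-Halo_budding, as without the pairing. With all libraries the block gave 11 higher and 3 lower genes in SOX9-mEGFP_spheroid relative to Halo-NLS, against 9 and 2 without it. Depth limited the calls to the 21 of 55 genes that averaged 10 normalized counts or more.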
